A study of Homo sapiens with 6 samples.

Results

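The 10 genes described here encode the TFEB family of transcription factors (TFEB, TFE3 and MITF), the folliculin complex (FLCN, FNIP1 and FNIP2), the Rag GTPases RRAGA, RRAGC and RRAGD, and the kinase MTOR. They were taken by gene symbol from the deposited table of 17918 genes, where 10 of 10 were present, and 10 of 10 were among the 12612 genes that passed the filter on low counts. RNA was sequenced from KMS11, a human multiple myeloma line, that is a line from a cancer of antibody-secreting plasma cells. There were 3 libraries of KMS11 cells carrying a short hairpin RNA (shRNA) against CRIP1, a small LIM domain protein, and 3 libraries of KMS11 cells carrying a scrambled shRNA, whose genotype the labels give as WT. The labels name no other treatment for either group. The hairpin sequence, the number of hairpins and whether the cells were a pool or a clone are not given in the sources used here. The series title names the proteasome and autophagy, so the comparison asks how the genes that tie nutrient state to lysosome and autophagy genes stood once CRIP1 was lowered.

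On the lysosome surface, a Rag heterodimer (RRAGA or RRAGB with RRAGC or RRAGD) recruits the mTORC1 kinase complex when amino acids are plentiful. Folliculin with FNIP1 or FNIP2 is the GTPase-activating protein for RRAGC and RRAGD, and Rags in that state present TFEB and TFE3 to mTORC1, which phosphorylates them and keeps them in the cytosol. When this hold is released, TFEB and TFE3 enter the nucleus and bind the CLEAR element, an extended E-box in lysosome and autophagy genes, and RRAGD, FLCN and FNIP2 are themselves known targets of these factors. In mouse B cells, Mitf is known to hold back plasma cell development and Fnip1 is needed for B cell development. Only transcript levels were measured here, so phosphorylation, localisation and GTP loading of these proteins are outside the data.

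Promoter sequence is shown for FNIP1 and RRAGC because these were the members with an E-box in the searched window and both rose in CRIP1 shRNA cells. RefSeq promoters (GRCh38.p14) were matched for 8 of the 10 genes, RRAGA and RRAGD having no entry. Each window ran from 250 bases before to 50 bases after the start of that entry, and any other starts of these genes were not searched. On both strands the E-box CACGTG, its extension TCACGTGA, which contains it and is the core of the CLEAR element, and the M-box TCATGTG were searched. The E-box was in 2 of the 8 windows, against 7.26% of 35116 windows in the RefSeq table, and TCACGTGA (0.98% of all windows) and TCATGTG (2.92%) were in 0 of the 8. The 250 bases before the start are printed 5′ to 3′ on the minus strand, with each E-box in capitals, for FNIP1 (chr5:131797018-131797267) and for RRAGC (chr1:38859773-38860022).
FNIP1: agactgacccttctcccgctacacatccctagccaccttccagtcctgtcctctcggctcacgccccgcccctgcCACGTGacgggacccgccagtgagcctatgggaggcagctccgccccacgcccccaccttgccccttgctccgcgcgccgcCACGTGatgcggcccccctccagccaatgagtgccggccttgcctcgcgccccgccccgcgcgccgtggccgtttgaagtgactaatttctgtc
RRAGC: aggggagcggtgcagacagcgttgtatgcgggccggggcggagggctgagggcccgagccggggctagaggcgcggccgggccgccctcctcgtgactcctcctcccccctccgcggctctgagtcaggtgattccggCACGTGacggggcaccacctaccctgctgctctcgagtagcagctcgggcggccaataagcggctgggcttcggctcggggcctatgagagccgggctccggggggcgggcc
The FNIP1 window held an E-box starting at -175 and another at -94, and the RRAGC window held its E-box at -112. The E-box of RRAGC and the upstream E-box of FNIP1 lie in the same run of 11 bases, CACGTGACGGG, which was found in 42 of the 35116 windows. That run was singled out after the sequences were seen, and a match of letters is a description and not a binding site.

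Library totals ranged from 16971454 to 18005318 estimated counts. Over all genes tested, log2 CPM (counts per library total) correlated at a Pearson's r of 0.995 to 0.996 within groups, and at 0.921 to 0.923 between them. CRIP1 had 486, 528 and 513 estimated counts in the CRIP1 shRNA libraries, against 10899, 13322 and 12300 in the scramble libraries (log2 fold change -4.71, SE 0.06). Of all genes tested, 77.6% were called at an adjusted p below 0.05 by edgeR's quasi-likelihood test, 39.4% as higher and 38.1% as lower in CRIP1 shRNA cells, so that a call by itself is common in this comparison. Whether the replicates were separate cultures is not stated in the labels, and p-values here reflect the scatter of these libraries, which may be only technical. Of 10 plasma cell markers tested, 3 rose and 7 fell, and the summed level of the list's 12 genes was 4003 to 4255 TPM in CRIP1 shRNA libraries and 8682 to 9143 TPM in scramble libraries. TPM is a transcript level per unit of gene length, with a common total for all libraries. Of 12 erythroid markers tested, 11 rose and 0 fell, with a summed level of 743 to 749.9 TPM in CRIP1 shRNA libraries against 3.86 to 5.66 TPM in scramble libraries, and HBG1, HBG2, HBE1 and RHAG were at 0 in all scramble libraries. Epithelial markers rose in 5 and fell in 1 of 8 genes tested, with summed levels of 91.6 to 99.4 TPM in CRIP1 shRNA libraries and 21.9 to 24.5 TPM in scramble libraries. Myeloid markers rose in 2 and fell in 0 of 3 tested (7.27 to 7.84 TPM in CRIP1 shRNA and 0.94 to 1.27 TPM in scramble libraries), fibroblast and endothelial markers rose in 1 and fell in 3 of 4 tested (6.15 to 6.90 TPM in CRIP1 shRNA and 8.42 to 9.19 TPM in scramble libraries), and of 8 T and NK cell markers, 0 passed the filter on low counts (1.70 to 2.32 TPM in CRIP1 shRNA and 0.36 to 0.71 TPM in scramble libraries), with CD4 and NKG7 at 0. The part that these markers play in the results below was not tested, and in bulk RNA fewer cells of a type and less RNA per cell cannot be told apart.

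Of the 10 genes, 7 rose in CRIP1 shRNA cells (TFEB, FLCN, FNIP1, FNIP2, RRAGA, RRAGC and RRAGD), MITF and MTOR fell, and TFE3 did not pass the test. By the same edgeR test, 39.4% of all genes tested were called as higher and 38.1% as lower, or 77.6% in either direction. The folliculin genes rose in 3 of 3, by 0.35 to 0.51 on the log2 scale, and the Rag genes in 3 of 3, by 0.60 to 1.18. The median log2 fold change of the 10 was 0.35, beside 0.01 over all genes tested. On the TPM scale the 3 CRIP1 shRNA values did not overlap the 3 scramble values in 10 of the 10 genes, against 78.5% of all genes tested. Of these, 8 were higher and 2 lower in CRIP1 shRNA cells, where 48.2% and 30.3% of all genes tested were. TPM carries its own shift: by limma on log2(TPM + 1) the median over all genes was 0.12, and 61.4% of called genes were higher against 50.8% in the edgeR fit, so log2 fold changes below are from edgeR on counts unless stated.

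**Figure D1:**
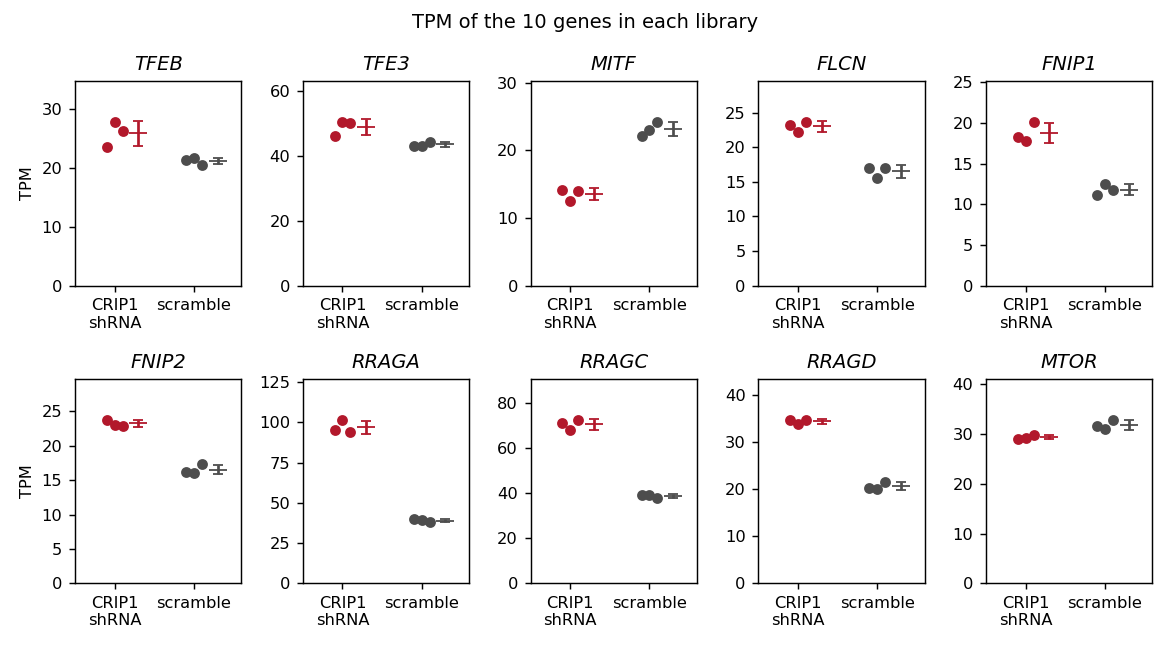
TPM of each of the 10 genes in the 3 CRIP1 shRNA libraries (red) and the 3 scramble libraries (grey), as points, with the mean and SD beside them; each vertical axis starts at 0. The groups do not overlap in any of the 10 panels, and RRAGA has the widest gap, at 94.1 to 101.7 TPM in CRIP1 shRNA libraries against 38.1 to 39.8 TPM in scramble libraries.

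RRAGA encodes a Rag subunit that binds the mTORC1 component Raptor. It lies on chromosome 9, 19049395 to 19050983 on the plus strand (GRCh38, GENCODE 29, as for all positions here), and has 1 annotated transcript. It was at 95.0, 101.7 and 94.1 TPM in CRIP1 shRNA libraries and at 39.8, 39.3 and 38.1 TPM in scramble libraries. The lowest CRIP1 shRNA value lay far above the highest scramble value, and the means were 96.9 ± 4.16 TPM in CRIP1 shRNA cells and 39.1 ± 0.870 TPM in scramble cells (SD, n = 3 each). The fitted rise was 2.26-fold (log2 fold change 1.18, SE 0.05, edgeR adjusted p = 6.45e-14), the largest of the 10 genes.

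RRAGC, the partner that folliculin acts on and a gene known to be mutated in follicular lymphoma, lies on chromosome 1, 38838198 to 38859823, minus strand. Its level was 70.9, 67.8 and 72.5 TPM in CRIP1 shRNA libraries, against 39.3, 39.1 and 37.6 TPM in scramble libraries. All CRIP1 shRNA values stood above all scramble values (70.4 ± 2.41 TPM in CRIP1 shRNA cells and 38.7 ± 0.928 TPM in scramble cells, SD, n = 3 each), and the rise was 1.66-fold (0.73, SE 0.04, edgeR adjusted p = 6.56e-12). RRAGD, the paralogue of RRAGC whose gene TFEB is known to induce, lies on chromosome 6, 89364636 to 89412270, minus strand. It was at 34.8, 33.9 and 34.8 TPM in CRIP1 shRNA libraries and at 20.3, 20.2 and 21.7 TPM in scramble libraries. Its values were tight within each group (34.5 ± 0.557 TPM in CRIP1 shRNA cells and 20.7 ± 0.843 TPM in scramble cells, SD, n = 3 each), and it rose by 0.60 on the log2 scale (SE 0.04, edgeR adjusted p = 1.15e-10).

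The ratio of RRAGA to RRAGC was higher in each CRIP1 shRNA library than in any scramble library. On TPM it was at least 1.30 in the CRIP1 shRNA libraries and at most 1.01 in the scramble libraries, with means of 1.38 ± 0.107 in CRIP1 shRNA cells and 1.01 ± 0.00464 in scramble cells (SD, n = 3 each). In scramble cells the 2 genes overlapped in level, and in CRIP1 shRNA cells they did not. An exact two-sided permutation test of that ratio gave p = 0.1, the smallest that 3 libraries against 3 allow. RRAGD made up 33.0%, 33.3% and 32.4% of the summed RRAGC and RRAGD TPM in CRIP1 shRNA libraries, against 34.0%, 34.0% and 36.6% in scramble libraries (difference in means -1.97 percentage points, exact permutation p = 0.1). RRAGB, the close relative of RRAGA, was a minor transcript in both groups, at 6.06, 5.86 and 4.96 TPM in CRIP1 shRNA libraries and 4.63, 3.84 and 3.50 TPM in scramble libraries. It rose by 0.34 (SE 0.14, edgeR adjusted p = 0.0284), and RRAGA shared 0 of its 1540 windows of 50 bases with transcripts of any other gene, RRAGB included.

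FLCN encodes folliculin, the tumour suppressor of Birt-Hogg-Dubé syndrome. It lies on chromosome 17, 17212212 to 17237188, minus strand. It was at 23.2, 22.2 and 23.7 TPM in CRIP1 shRNA libraries, against 17.0, 15.5 and 17.0 TPM in scramble libraries. The groups were well apart (23.0 ± 0.751 TPM in CRIP1 shRNA cells and 16.5 ± 0.875 TPM in scramble cells, SD, n = 3 each), and FLCN rose by 0.36 on the log2 scale (SE 0.06, edgeR adjusted p = 9.00e-06). MPRIP overlaps the 3′ end of FLCN on the opposite strand, and no strand setting is given for the counts. MPRIP went the other way, at 12.8, 13.0 and 13.5 TPM in CRIP1 shRNA libraries and 17.3, 16.3 and 17.1 TPM in scramble libraries (-0.45, SE 0.04, edgeR adjusted p = 5.25e-09).

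FNIP1 and FNIP2 encode the partners that hold folliculin at the lysosome and also bind AMPK and the chaperone HSP90. FNIP1 lies on chromosome 5, 131641714 to 131797063, minus strand, and carries the E-box pair printed above. It was at 18.2, 17.8 and 20.1 TPM in CRIP1 shRNA libraries and at 11.1, 12.5 and 11.8 TPM in scramble libraries. It rose by 0.51 (SE 0.05, edgeR adjusted p = 2.52e-08), more than FLCN in that fit but less than FLCN once a trend of counts with gene GC content was removed (0.36 for FNIP1 and 0.46 for FLCN), with means of 18.7 ± 1.22 TPM in CRIP1 shRNA cells and 11.8 ± 0.720 TPM in scramble cells (SD, n = 3 each). FNIP2, on chromosome 4, 158769138 to 158908049, plus strand, was at 23.8, 23.0 and 23.0 TPM in CRIP1 shRNA libraries, against 16.3, 16.0 and 17.3 TPM in scramble libraries. It rose by 0.35 (SE 0.05, edgeR adjusted p = 5.76e-07), and C4orf45, which overlaps it on the opposite strand, had 1 count over each group.

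The shares of the FNIP paralogues overlapped between the groups. FNIP2 made up 56.6%, 56.4% and 53.3% of the summed FNIP1 and FNIP2 TPM in CRIP1 shRNA libraries and 59.5%, 56.1% and 59.5% in scramble libraries, and these ranges overlap (difference in means -2.91 percentage points, exact permutation p = 0.3). The ratio of FLCN to the summed FNIP1 and FNIP2 TPM was 0.548 ± 0.00415 in CRIP1 shRNA cells and 0.583 ± 0.0396 in scramble cells (SD, n = 3 each, exact permutation p = 0.4). With 3 libraries against 3 the smallest p this test can give is 0.1, so neither p shows that the balance was the same. The sum of both FNIP transcripts was 42.0 ± 1.12 TPM in CRIP1 shRNA cells, against 28.4 ± 0.913 TPM in scramble cells (SD, n = 3 each, exact permutation p = 0.1).

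MITF, the master factor of melanocytes, fell, the largest change among the transcription factors. It lies on chromosome 3, 69739435 to 69968337, plus strand, with 18 annotated transcripts that the gene counts do not separate. It was at 14.2, 12.6 and 14.0 TPM in CRIP1 shRNA libraries and at 22.1, 23.1 and 24.2 TPM in scramble libraries. The groups were far apart (13.6 ± 0.883 TPM in CRIP1 shRNA cells and 23.1 ± 1.05 TPM in scramble cells, SD, n = 3 each), and MITF fell by 0.89 on the log2 scale (SE 0.05, edgeR adjusted p = 6.56e-12). Of 10 melanocyte markers, 3 passed the filter, with DCT higher (1.63, SE 0.42), MLANA lower (-0.92, SE 0.38) and PMEL not called (0.41, SE 0.21). Levels were near the floor: DCT had means of 0.433 TPM in CRIP1 shRNA cells and 0.147 TPM in scramble cells, and MLANA 0.377 and 0.653 TPM. The summed level of the list was 3.02 to 3.83 TPM in CRIP1 shRNA libraries and 2.70 to 3.27 TPM in scramble libraries, with TYR at 0. Of 8 genes of osteoclasts, another cell type that relies on MITF, 3 passed the filter: CTSK, which encodes the bone collagen protease cathepsin K, rose (0.51, SE 0.08), and TNFRSF11A (-2.20, SE 0.11) and MMP9 (-4.19, SE 0.24) fell. The summed osteoclast level was 27.5 to 32.7 TPM in CRIP1 shRNA libraries and 27.5 to 29.8 TPM in scramble libraries, with DCSTAMP at 0. Most of that sum was CTSK, with means of 28.3 TPM in CRIP1 shRNA cells and 18.0 TPM in scramble cells. TNFRSF11A (1.19 TPM in CRIP1 shRNA cells and 4.81 TPM in scramble cells) and MMP9 (0.323 and 5.49 TPM) were low. The similar sums thus join a rise of CTSK with falls of the others.

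TFEB, on chromosome 6, 41683978 to 41736259, minus strand, was at 23.6, 27.8 and 26.3 TPM in CRIP1 shRNA libraries and at 21.3, 21.6 and 20.5 TPM in scramble libraries. The CRIP1 shRNA values were the more scattered and their lowest was near the scramble range (25.9 ± 2.11 TPM in CRIP1 shRNA cells and 21.1 ± 0.569 TPM in scramble cells, SD, n = 3 each). The rise was small and near the threshold (0.16, SE 0.07, edgeR adjusted p = 0.0345), and DESeq2 did not make it (adjusted p = 0.088), nor did edgeR with no filter on low counts (adjusted p = 0.0642). Without CRIP1 shRNA replicate 2 it was 0.10 (adjusted p = 0.201), and the call was also absent when CRIP1 shRNA replicate 3 (adjusted p = 0.0717), scramble replicate 1 (adjusted p = 0.0661), scramble replicate 2 (adjusted p = 0.0507) or scramble replicate 3 (adjusted p = 0.124) was left out of edgeR. The call was made, and the change was larger, once the GC trend was removed in edgeR (0.28, SE 0.06, adjusted p = 0.000212) and on log2(TPM + 1) by limma (0.28, SE 0.06, adjusted p = 0.00229). Relative to the median of all genes it was 0.15 in the edgeR fit, 0.28 with the GC trend removed and 0.16 on log2(TPM + 1).

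TFE3, on chromosome X, 49028726 to 49043486, minus strand, was the most abundant factor of the family in both groups. It was at 46.1, 50.5 and 50.2 TPM in CRIP1 shRNA libraries and at 43.2, 43.1 and 44.3 TPM in scramble libraries. The TPM ranges did not overlap (48.9 ± 2.42 TPM in CRIP1 shRNA cells and 43.6 ± 0.671 TPM in scramble cells, SD, n = 3 each), but edgeR made no call (0.04, SE 0.05, adjusted p = 0.492). It was called as higher on log2(TPM + 1) by limma (0.16, SE 0.05, adjusted p = 0.00802). The call was also made once a trend with GC content was removed in edgeR (0.16, SE 0.04, adjusted p = 0.000749). Relative to the median of all genes its change was 0.02 in the edgeR fit, 0.16 with the GC trend removed and 0.04 on log2(TPM + 1). TFEC, the remaining paralogue, had 1 count over the CRIP1 shRNA libraries and 4 over the scramble libraries and was not tested.

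On the TPM scale the summed level of the family overlapped between the groups, while the shares of its members did not. TFEB, TFE3 and MITF together came to 83.9, 90.8 and 90.4 TPM in CRIP1 shRNA libraries, against 86.7, 87.8 and 89.0 TPM in scramble libraries, and these ranges overlap (difference in means 0.56 TPM, exact permutation p = 0.9). TPM carries its own shift (a median of 0.12 over all genes by limma on log2(TPM + 1), against 0.01 in edgeR). The sum was not fitted on counts, so whether the total of the family held steady was not tested. MITF made up 16.9%, 13.8% and 15.5% of that sum in CRIP1 shRNA libraries and 25.5%, 26.3% and 27.2% in scramble libraries (means of 15.4 ± 1.53% in CRIP1 shRNA cells and 26.3 ± 0.834% in scramble cells, SD, n = 3 each, exact permutation p = 0.1). TFE3 took 55.3 ± 0.325% in CRIP1 shRNA cells and 49.6 ± 0.403% in scramble cells, and TFEB took 29.3 ± 1.24% in CRIP1 shRNA cells and 24.1 ± 0.912% in scramble cells (SD, n = 3 each). With 3 libraries against 3, p = 0.1 is the smallest value this exact test can give.

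**Figure D2:**
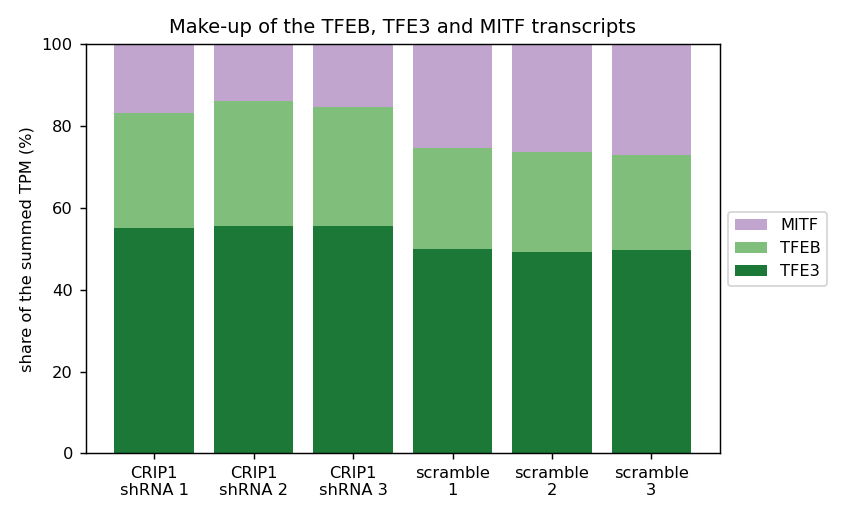
Share of TFE3, TFEB and MITF in their summed TPM (vertical axis, percent), for the 3 CRIP1 shRNA libraries (left) and the 3 scramble libraries (right). MITF takes 13.8% to 16.9% in CRIP1 shRNA libraries, against 25.5% to 27.2% in scramble libraries.

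MTOR encodes the kinase shared by mTORC1 and mTORC2 and lies on chromosome 1, 11106535 to 11262507, minus strand. It was at 29.1, 29.2 and 29.8 TPM in CRIP1 shRNA libraries and at 31.6, 31.0 and 32.9 TPM in scramble libraries. The groups were close but did not overlap (29.3 ± 0.390 TPM in CRIP1 shRNA cells and 31.8 ± 0.992 TPM in scramble cells, SD, n = 3 each), and MTOR fell by 0.26 on the log2 scale in edgeR (SE 0.04, adjusted p = 3.20e-06). On log2(TPM + 1) the fall was smaller (-0.11, SE 0.04, limma adjusted p = 0.0367), or -0.23 relative to the median of all genes on that scale. RRAGA stood at 3.31 ± 0.167 times MTOR in CRIP1 shRNA cells and 1.23 ± 0.0616 times MTOR in scramble cells (ratio of TPM, SD, n = 3 each, exact permutation p = 0.1).

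**Figure D3:**
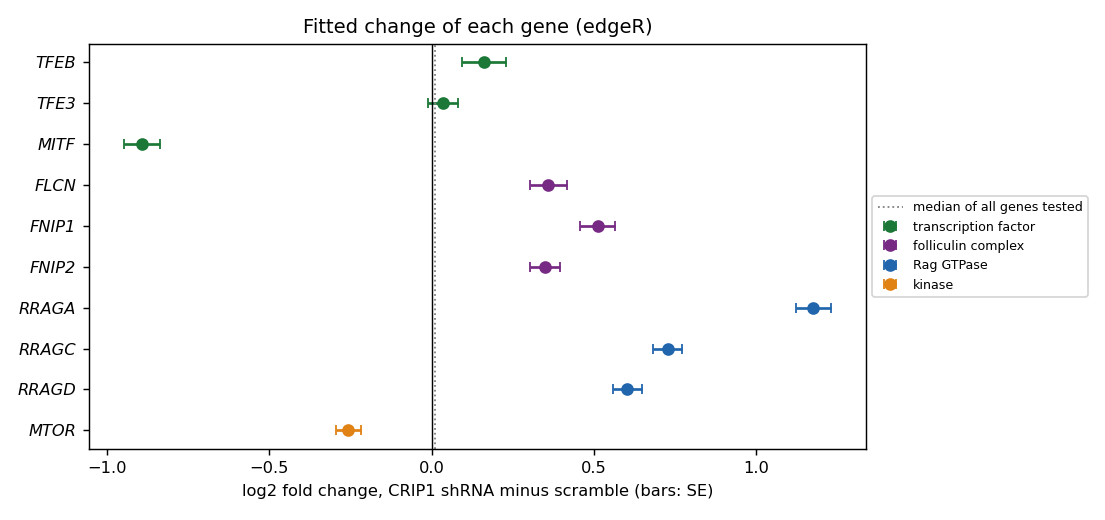
Log2 fold change of each gene, CRIP1 shRNA minus scramble, from the edgeR fit, with its SE as a bar, coloured by role; the dotted line is the median of all genes tested (0.01). The Rag and folliculin genes lie between 0.35 and 1.18, MITF at -0.89 and MTOR at -0.26.

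The order of levels within the set changed between the groups. In CRIP1 shRNA cells the mean TPM ran RRAGA, RRAGC, TFE3, RRAGD, MTOR, TFEB, FNIP2, FLCN, FNIP1 and MITF, and the neighbours whose ranges overlapped were TFEB with FNIP2 and FNIP2 with FLCN. In scramble cells the order was TFE3, RRAGA, RRAGC, MTOR, MITF, TFEB, RRAGD, FNIP2, FLCN and FNIP1, with overlap of RRAGA with RRAGC, TFEB with RRAGD and FNIP2 with FLCN. MITF thus stood last in CRIP1 shRNA cells and above TFEB in scramble cells.

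Counts of some members can hold reads of overlapping transcripts. In RRAGC, 42.3% of its 2683 windows of 50 bases also occur in AL139260.2, a processed transcript on the same strand, and in FLCN 30.9% of 3589 windows occur in transcripts of other genes, mostly AC055811.2 (28.5%). Those genes are not analysed here, and the part of reads they took was not tested. TFE3, MITF, FNIP2, RRAGA and RRAGD shared 0 windows with other genes, and TFEB, FNIP1 and MTOR shared 0.825%, 3.61% and 0.498%.

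Genes whose values over the 6 libraries lay nearest to those of 3 members were picked by Euclidean distance of centred log2 CPM, among genes with a mean of at least 10 CPM. For MITF these were ENTPD1 (distance 0.0425), HSPA4L (0.0652) and TMEM18 (0.0845). For RRAGD they were KCTD13 (0.0358), KMT2C (0.0461) and NARS1 (0.0473), and for TFEB they were SIRT6 (0.0611), MAZ (0.0632) and PACS2 (0.0652). These distances are a description, since the genes share the same 6 libraries and most genes differ between the 2 groups.

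Around the Rags, the Ragulator scaffold and its partners gave 4 higher and 1 lower of 8 genes, where 39.4% and 38.1% of all genes tested were, with a median log2 fold change of 0.14 beside 0.01 over all genes. SLC38A9, the lysosomal arginine sensor, rose and was at 62.2, 54.4 and 60.7 TPM in CRIP1 shRNA libraries, against 41.1, 44.8 and 43.6 TPM in scramble libraries (0.34, SE 0.05). LAMTOR2 rose (0.26, SE 0.04), whereas LAMTOR1, which anchors Ragulator to the membrane, fell to 82.0 ± 2.76 TPM in CRIP1 shRNA cells, against 97.9 ± 0.102 TPM in scramble cells (-0.39, SE 0.05). The count of higher genes was 2 when CRIP1 shRNA replicate 1, scramble replicate 2 or scramble replicate 3 was left out, 6 on log2(TPM + 1) with 1 lower, and 6 with 2 lower once the GC trend was removed.

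Upstream of the Rags, genes of GATOR, KICSTOR and the amino acid sensors went both ways, 7 higher and 8 lower of 18 (median 0.04, or -0.12 once the GC trend was removed). These shares, 38.9% higher and 44.4% lower, were near those of all genes tested (39.4% and 38.1%), so the counts do not set the list apart. CASTOR2, the relative of the arginine sensor CASTOR1, fell to 9.79, 9.91 and 9.39 TPM in CRIP1 shRNA libraries, against 30.1, 31.6 and 28.5 TPM in scramble libraries (-1.85, SE 0.05). Of the sestrins, which restrain mTORC1, SESN3 fell (13.8 ± 0.627 TPM in CRIP1 shRNA cells and 31.5 ± 1.53 TPM in scramble cells; -1.33, SE 0.04) and SESN2, the leucine sensor, rose (163 ± 10.9 TPM in CRIP1 shRNA cells and 107.8 ± 3.13 TPM in scramble cells; 0.46, SE 0.04). SESN1 also rose (0.48, SE 0.09), at a lower level (means of 4.86 TPM in CRIP1 shRNA cells and 3.20 TPM in scramble cells). ITFG2, a KICSTOR subunit, fell by 1.22 (SE 0.12).

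The partners of MTOR were lower in 9 and higher in 2 of 14 genes tested, or 64.3% and 14.3%, beside 38.1% and 39.4% of all genes, with a median of -0.24 beside 0.01 over all genes. The list joins subunits of the complexes with assembly factors, activators and inhibitors, so these counts do not describe the complexes alone. Among the genes that fell were the regulators TSC1 (-0.46), TSC2 (-0.27) and TBC1D7 (-0.59), and RPTOR, which encodes Raptor (-0.44). The 2 that rose were RHEB, the GTPase that activates mTORC1, at 385, 385 and 416 TPM in CRIP1 shRNA libraries against 202, 232 and 226 TPM in scramble libraries (0.71, SE 0.04), and TTI2, an assembly factor of the kinase (0.86, SE 0.06). TELO2, which works with TTI2, fell by 0.56 (SE 0.05), and DEPTOR, an inhibitor of mTOR known for high expression in a subset of myelomas, fell by 0.55 (SE 0.05). On log2(TPM + 1) the counts were 2 higher and 7 lower.

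Genes of mTORC1 substrates were lower in 8 and higher in 1 of 10, beside 38.1% and 39.4% of all genes tested, with a median of -0.33. RPS6KB1, the S6 kinase, fell to 31.3, 31.5 and 32.5 TPM in CRIP1 shRNA libraries, against 51.5, 47.0 and 45.8 TPM in scramble libraries (-0.58, SE 0.04). LARP1, which binds mRNAs of the translation machinery, fell by 0.38 (SE 0.03), as did the autophagy initiation subunit ATG13 (SE 0.04), and LPIN1, which encodes a phosphatidate phosphatase, fell by 0.29 (SE 0.03). The count of higher genes was 2 on log2(TPM + 1) and once the GC trend was removed.

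Among AMPK subunits and partners of the FNIP proteins, 8 rose and 6 fell of 15, with a median of 0.17 that turned to -0.04 once the GC trend was removed. The share that rose was 53.3%, beside 39.4% of all genes tested, and the share that fell was near that of all genes (38.1%). GABARAP, the autophagosome protein that recruits the folliculin complex to damaged lysosomes, rose and was at 175, 199 and 170.0 TPM in CRIP1 shRNA libraries, against 72.1, 81.0 and 78.5 TPM in scramble libraries (1.10, SE 0.06). The chaperones HSP90AA1 (656 ± 5.26 TPM in CRIP1 shRNA cells and 1151 ± 15.0 TPM in scramble cells, log2 fold change -0.95, SE 0.03) and HSP90AB1 (-0.92, SE 0.03) fell. Of the AMPK subunits, only PRKAG2 fell (-0.99, SE 0.07). PRKAA1 (0.17), PRKAB1 (0.58), PRKAB2 (0.47) and PRKAG1 (0.30) rose. PRKAA2 also rose (0.99), from a low level (means of 0.783 TPM in CRIP1 shRNA cells and 0.353 TPM in scramble cells).

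Of 18 genes that set where TFEB resides, 8 rose and 5 fell, with a median of 0.10 that was 0.00 after removal of the GC trend. The shares of 44.4% higher and 27.8% lower stand beside 39.4% and 38.1% of all genes tested, and the counts were 12 higher and 3 lower on log2(TPM + 1) and, after removal of that trend, 8 higher and 7 lower, so they do not set the list apart. XPO1, the exportin that carries TFEB out of the nucleus, fell to 132, 124 and 129.9 TPM in CRIP1 shRNA libraries, against 187, 189 and 186 TPM in scramble libraries (-0.68, SE 0.03). The 14-3-3 genes tested, whose products retain phosphorylated TFEB in the cytosol, all rose. The changes were YWHAE (0.43, SE 0.03), YWHAH (0.41, SE 0.04), YWHAG (0.39, SE 0.04), YWHAZ (0.32, SE 0.03), YWHAB (0.30, SE 0.03) and YWHAQ (0.24, SE 0.03). SFN did not pass the filter on low counts. Besides XPO1, the genes that fell were PPP3CB (-0.39), STUB1 (-0.29), AKT1 (-0.23) and PPP2CA (-0.09).

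Other factors that bind E-boxes were higher in 6 and lower in 3 of 9 genes tested, beside 39.4% and 38.1% of all genes (median 0.18), and on log2(TPM + 1) 1 was lower. USF1 and USF2, which form dimers with each other, differed in direction: USF1 fell (98.6 ± 4.63 TPM in CRIP1 shRNA cells and 142 ± 9.14 TPM in scramble cells; -0.67, SE 0.05) and USF2 rose (149.8 ± 13.4 TPM in CRIP1 shRNA cells and 102 ± 1.71 TPM in scramble cells; 0.42, SE 0.06). The repressor BHLHE41 rose by 1.07 (SE 0.05) and MLX, the partner of MondoA, by 0.32 (SE 0.04).

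Of 30 known targets of TFEB and TFE3 in the CLEAR network, 19 rose and 5 fell, with a median of 0.28 beside 0.01 over all genes tested, and 39.4% and 38.1% of all genes called as higher and lower. GPNMB, a glycoprotein used as a reporter of TFEB and TFE3 activity, rose to 12.9, 13.0 and 12.7 TPM in CRIP1 shRNA libraries, against 3.33, 3.30 and 4.12 TPM in scramble libraries (1.71, SE 0.10). MAP1LC3B, which encodes an LC3 protein of the autophagosome, rose (351 ± 8.96 TPM in CRIP1 shRNA cells and 146 ± 3.54 TPM in scramble cells; 1.13, SE 0.04), with the lysosomal enzyme gene HEXA (1.02, SE 0.04) and the autophagy gene WIPI1 (0.96, SE 0.04). GLA, which encodes alpha-galactosidase A, fell to 58.5 ± 1.20 TPM in CRIP1 shRNA cells, against 109.1 ± 4.96 TPM in scramble cells (-1.03, SE 0.05). After removal of the GC trend 20 were higher and 6 lower, and on log2(TPM + 1) they were 22 and 5. The erythroid markers differed between the same groups, with 11 of 12 higher, and their part in these counts was not tested.

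**Figure D4:**
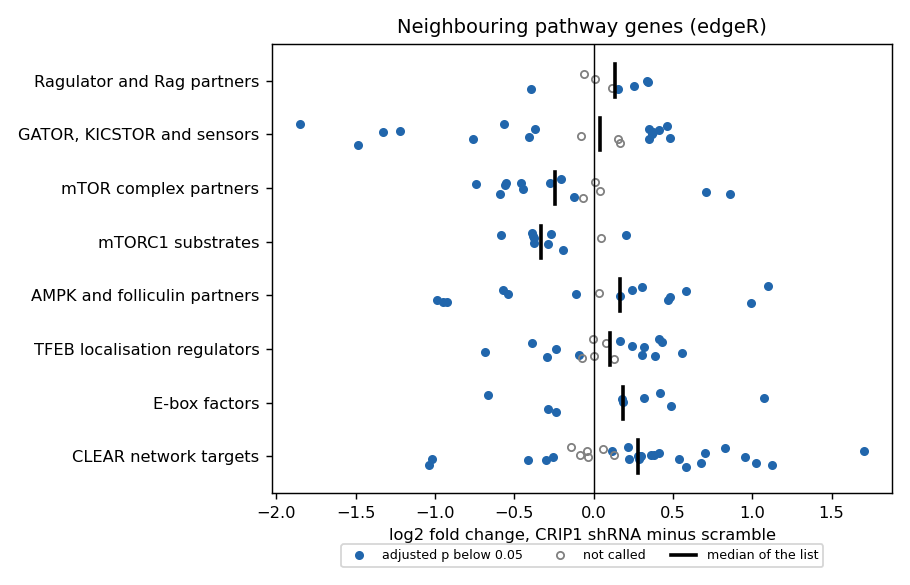
Log2 fold change, CRIP1 shRNA minus scramble (edgeR), of each tested gene in 8 lists of neighbouring pathway genes; filled points have an adjusted p below 0.05, open points do not, and the black bars are list medians. The medians of the mTOR partners (-0.24) and the mTORC1 substrates (-0.33) lie below 0 and that of the CLEAR network targets (0.28) above it.

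The direction of each of the 10 genes was the same under each of the 17 alternatives run. RRAGA ranged from 1.13 to 1.31, RRAGC from 0.70 to 0.86, RRAGD from 0.50 to 0.73 and MITF from -1.01 to -0.73. MTOR ranged from -0.28 to -0.11, and TFEB from 0.10 to 0.29. GC content differed among the members, from 38.9% of the longest transcript of FNIP1 to 59.8% of that of TFE3, and removal of the GC trend moved the 3 genes of lowest GC content, FNIP1, MITF and RRAGD, to 0.36, -1.01 and 0.50.

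**Figure D5:**
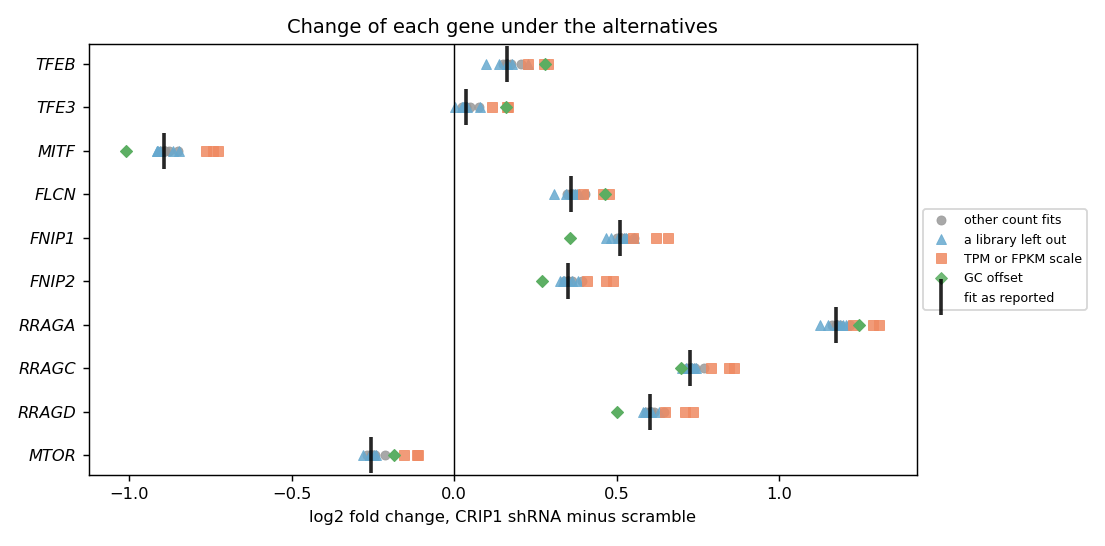
Log2 fold change of each gene, CRIP1 shRNA minus scramble, in the edgeR fit as reported (black bar) and under 17 alternatives (points, by kind of alternative). Each gene keeps its side of 0, with TFE3 closest to it at 0.00 to 0.17.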

How the data were processed

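Per the labels, 6 libraries were made from total RNA with a SMARTer mRNA kit, and groups and replicate numbers come from the sample titles. The authors deposited, per the file headers, FPKM, TPM and an estimated count per gene in each library. The tools listed in the submitters' processing notes are RSEM 1.2.8, HISAT2 2.1.0 and Bowtie2 2.2.5, with GRCh38.p13 as the build and no roles given. The annotation and strand setting are not given in the sources used here.

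Estimated counts were rounded, and edgeR 4.0.16 (R 4.3.3) was run on them (filterByExpr by group with a minimum count of 10, TMM, group only, quasi-likelihood test), fitted and adjusted by Benjamini and Hochberg over 12612 genes at 0.05. Changes are CRIP1 shRNA minus scramble, and the SE is the log2 fold change over the square root of F. Shares and ratios of TPM were tested over libraries by exact two-sided permutation. Alternatives were DESeq2 1.42.0, other scalings and filters, limma 3.58.1 on log2 of FPKM or TPM, a loess GC offset (span 0.5, centred per library, GENCODE 29 transcripts, 99.5% of tested genes with a value), the replicate number as a block, and each library left out. The fit was tested on simulated data with 12612 genes, 200 of them changed, and made 8 false calls. At 1.25-fold it recovered 45 of 62 genes and at 2-fold 60 of 67. In the real data 77.6% of genes were called, so the simulation does not show how the fit behaves when so many genes change. Within a group, libraries differed beyond sampling noise (mean chi-square per gene 1.62 to 4.15), so none was treated as a repeat deposit.

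Members and gene lists were chosen with earlier results of these data known. Named were the 10 members, CRIP1 and, from the lists, mostly each list's 4 genes of smallest adjusted p and its largest called change. Other list genes were added outside that rule, so the named genes are not a fixed selection. From the partners of MTOR these were TSC1, TSC2 and TBC1D7, and from the sensors SESN1. From the AMPK list they were PRKAA1, PRKAA2, PRKAB1, PRKAB2 and PRKAG1. From the regulators of TFEB they were YWHAB, YWHAQ, YWHAZ, SFN, PPP3CB, STUB1, AKT1 and PPP2CA. TYR, DCSTAMP, CD4 and NKG7 were named as genes with no counts. RPTOR was added as the gene of Raptor. TFEC, MPRIP and C4orf45 were added for their likeness or overlap with members, and 3 nearest genes each were named for TFEB, MITF and RRAGD.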

Additional observations from a re-analysis of the deposited data

How the results depend on the processing

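Of 170 values of the 10 log2 fold changes under 17 alternatives, 158 kept their direction and side of the threshold, 7 lost the call, 5 gained one and 0 changed sign. TFEB lost its call under the DESeq2 Wald test (0.16, adjusted p = 0.088) and with no filter on low counts (0.15, adjusted p = 0.0642). With a library left out it ranged from 0.10 to 0.23 (adjusted p = 0.00378 to 0.201) and kept its call only without CRIP1 shRNA replicate 1. TFE3 gained a call on log2(FPKM + 1) (0.12), log2(TPM + 1) (0.16) and log2(TPM + 0.1) (0.17), and with the GC offset alone (0.16) or with the replicate block (0.16), and ranged from 0.00 to 0.08 with a library left out. The cause was not tested. Members called as higher numbered 6 to 8 and as lower 2 throughout. The difference in the MITF share was -13.7 percentage points on estimated counts, which carry gene length, against -10.9 on TPM and -11.7 to -10.1 with a library left out. Of 272 counts for the pathway lists under the alternatives, 258 stayed within 1.5 times, and 14 moved further.

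Replicate numbers did not pair the libraries (correlations of deviations 0.0455, -0.00877 and -0.0133), and 2 of 6 libraries correlated best with their own number. With the number as a block, 9816 genes were called against 9783, TFEB stood at 0.16 (adjusted p = 0.028) and MITF at -0.89, and no call among the 10 genes changed. Summed over a group, the depth behind a member ran from 1291 estimated counts (TFEB, scramble) to 7841 (MTOR, scramble).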
